A study of Mus musculus with 12 samples.

Results

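NMDA and kainate receptors are glutamate-gated cation channels, and the 10 genes described here encode subunits of them. They were chosen by mouse gene symbol among the 55471 genes of the count table. 6 encode NMDA receptor subunits (Grin1, Grin2a, Grin2b, Grin2c, Grin2d and Grin3a) and 4 encode kainate receptor subunits (Grik1, Grik2, Grik3 and Grik5). All 10 were among the 19578 genes with enough reads to be tested. The cultures came from the hippocampi of wild-type CD1 mice at embryonic day 17, taken from litters of both sexes. They were transfected at day 7 in vitro (DIV 7) with lipid nanoparticles that carried a gapmer, and RNA was taken at DIV 10. A gapmer is an antisense oligonucleotide that directs RNase H to its target RNA. The *Neuid* KD group received a gapmer against the long noncoding RNA *Neuid*, and the control group a gapmer with no known target. Each group had 6 libraries of stranded total RNA. The labels do not say whether these came from separate cultures, so that p-values measure the spread between these samples, which may be technical.

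An NMDA receptor is an assembly of GluN1 with GluN2 or GluN3 subunits. Receptors of GluN1 with GluN2 pass calcium when glutamate and a co-agonist (glycine or D-serine) are bound and depolarization has removed the magnesium block. They are known for their part in hippocampal synaptic plasticity. The GluN2 subunits set the kinetics of the channel, and in the developing forebrain GluN2B comes first and GluN2A is added with maturation. Kainate receptors are tetramers in which GluK1, GluK2 and GluK3 can form channels by themselves and GluK4 and GluK5 need one of these as a partner, and they act on both sides of the synapse, in the hippocampus foremost at mossy fiber synapses.

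After *Neuid* KD, 1 of the 10 genes rose, and for the other 9 no difference was called. Grik3, which encodes the kainate receptor subunit GluK3, rose from 45.4 ± 2.12 to 54.9 ± 4.95 CPM (counts per 1000000 reads of the scaled library, mean ± SD, n = 6 per group). This is a log2 fold change of 0.28 with a standard error of 0.0593 (adjusted p = 0.00502, quasi-likelihood test of edgeR). In this fit no member was called lower, and the calls of other fits are given below. The other kainate subunits had log2 fold changes of 0.25 (Grik1), 0.22 (Grik2) and 0.029 (Grik5), and the NMDA receptor subunits ranged from -0.39 (Grin2d) to 0.032 (Grin2a), all with an adjusted p above 0.05. A member was called at an adjusted p under 0.05 over all tested genes, and of these 6.31% were called higher, 2.42% lower and 8.72% in either direction. Of all called genes 72.3% were higher, and with upper-quartile normalization 45.5% were. None of the 10 also passed an absolute log2 fold change of 0.5, which 2.44% of the tested genes passed as higher and 0.792% as lower. The 10 log2 fold changes had a median of 0.018, with 7 positive and 3 negative, and the median over all tested genes was -0.027.

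**Figure D1:**
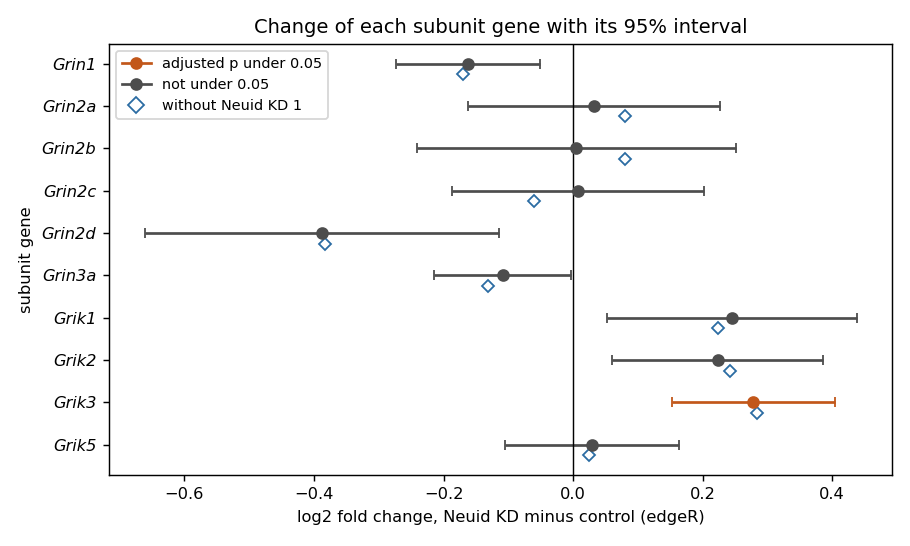
Log2 fold change of each subunit gene, *Neuid* KD minus control, from edgeR (x axis, log2 scale), with its 95% interval as a bar; the y axis lists the genes. The interval of Grik3 runs from 0.15 to 0.40 and is the only bar in orange, for an adjusted p under 0.05, and open diamonds give the value without *Neuid* KD replicate 1.

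Facts of the libraries bear on all of these values. *Neuid* (Gm10419) itself fell from 28.4 ± 2.03 in control to 8.05 ± 1.13 CPM in *Neuid* KD libraries (log2 fold change -1.81, adjusted p = 1.3e-10), with every *Neuid* KD library under every control library; Gm42517 overlaps it on the opposite strand. Read totals ran from 18002585 to 30914714 in the control group and from 11152556 to 30573480 in the *Neuid* KD group. Background was read from 1780 genes of smell and taste receptors, which summed to 26.0 to 653 CPM per library. 7 libraries (4 control, 3 *Neuid* KD) had at least 100 CPM of it. *Neuid* KD replicate 1 stood apart: it had the fewest reads, a background of 604 CPM and, for 8 of the 10 members, a value below all 5 other *Neuid* KD libraries. Results that rest on it are given with and without it.

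The markers of neurons were present, as the label of the cells asks. The 12 markers shared by neurons summed to 6501 to 7625 CPM in control and 6398 to 7702 CPM in *Neuid* KD libraries, and 1 of them was called higher and 1 lower. Of 8 markers of excitatory neurons 1 was called higher and 1 lower, and of 9 markers of inhibitory neurons none was called. All 10 markers of astrocytes were called higher, and their sum went from 1687 to 2126 CPM in control up to 3073 to 3736 CPM in *Neuid* KD. Of 8 markers of oligodendrocyte precursors 4 were called higher, with sums of 239.9 to 289.9 CPM in control and 479 to 527 CPM in *Neuid* KD. The part of these cells in the values of the receptor genes was not tested. Of 4 tested markers of myelinating oligodendrocytes 1 was called lower, and none was called among 3 of microglia, 4 of endothelial cells and 8 of fibroblasts and mural cells. The sum of the 7 microglia markers was 6.57 to 11.3 CPM in control and 5.74 to 11.1 CPM in *Neuid* KD. No listed marker was at 0 in all 12 libraries. In such bulk RNA, fewer cells of a type and less RNA per cell cannot be told apart.

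The promoters are shown for 3 genes: Grik3, which rose, and Grik2 and Grin1, which passed the test in opposite directions once *Neuid* KD replicate 1 was left out. They come from RefSeq on GRCm38.p6 and hold 250 bases before and 50 bases after the annotated start, written 5′ to 3′ on the strand of the gene. Capitals mark GC boxes, the letters GGGCGG read on either strand. The stretch of Grik3 is chr4:125490446-125490745 on the plus strand, that of Grik2 is chr10:49788705-49789004 on the minus strand, and that of Grin1 is chr2:25319138-25319437 on the minus strand.
Grik3: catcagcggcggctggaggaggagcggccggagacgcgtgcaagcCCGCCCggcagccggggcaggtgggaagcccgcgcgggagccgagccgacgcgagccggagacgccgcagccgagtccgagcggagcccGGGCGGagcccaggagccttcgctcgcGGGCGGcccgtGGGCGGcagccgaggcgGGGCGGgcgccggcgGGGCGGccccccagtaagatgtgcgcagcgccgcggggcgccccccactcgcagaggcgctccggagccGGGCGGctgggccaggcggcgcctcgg
Grik2: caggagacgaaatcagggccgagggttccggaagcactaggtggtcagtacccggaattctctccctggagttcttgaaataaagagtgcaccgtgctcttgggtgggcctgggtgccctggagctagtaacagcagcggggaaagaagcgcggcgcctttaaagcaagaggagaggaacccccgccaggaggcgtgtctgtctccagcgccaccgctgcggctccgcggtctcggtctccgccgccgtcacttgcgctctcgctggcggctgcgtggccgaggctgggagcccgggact
Grin1: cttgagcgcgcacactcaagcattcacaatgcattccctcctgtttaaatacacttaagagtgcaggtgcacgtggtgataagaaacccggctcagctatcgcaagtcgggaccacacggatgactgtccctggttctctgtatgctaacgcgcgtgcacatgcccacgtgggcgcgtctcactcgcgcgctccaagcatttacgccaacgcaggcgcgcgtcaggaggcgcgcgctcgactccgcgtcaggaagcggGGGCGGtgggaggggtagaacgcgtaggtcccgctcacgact

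The Grik3 promoter was 82.0% G and C, with 50 CpG dinucleotides and 7 GC boxes. That of Grik2 was 64.7% G and C with 26 CpG and no GC box, and that of Grin1 was 60.7% with 33 CpG and 1 GC box. Over the 32841 promoters of this length in the same RefSeq table, the median was 52.7% G and C and 7 CpG, and 35.7% held at least 1 GC box. None of the 3 held the letters TATAAA on either strand, which 13.6% of all promoters do. An E-box, CANNTG, which reads the same on both strands, occurred 4 times in the Grin1 promoter and 1 time each in those of Grik2 and Grik3, and 72.3% of all promoters hold at least 1. Among the other members, Grin2c (70.0% G and C, 3 GC boxes), Grik5 (72.0%, 2 GC boxes) and Grin2d (56.0%, no GC box) had an entry, so that 6 of the 10 were matched. Grin2a, Grin2b, Grin3a and Grik1 were not. These matches describe the letters in these windows.

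Levels were compared between genes per length, as CPM per kb of all annotated exon bases of the gene. In control libraries the order was Grin2b at 46.7 ± 2.84 CPM per kb, Grin1 at 37.8 ± 2.06, Grik5 at 24.6 ± 2.00 and Grin2a at 8.08 ± 0.364 (SD, n = 6 here and below). Below these came Grik3 at 5.06 ± 0.236, Grik2 at 4.79 ± 0.406, Grin3a at 2.57 ± 0.0987, Grik1 at 1.85 ± 0.255, Grin2c at 1.80 ± 0.211 and Grin2d at 1.12 ± 0.217 CPM per kb. The ranges of neighbors in this order overlapped for Grik3 and Grik2 and for Grik1 and Grin2c, and for no other pair of neighbors. With the longest transcript as the length, Grin1 (85.7 CPM per kb) came before Grin2b (48.2) and Grik2 (6.73) before Grik3 (5.06), so that these 2 orders rest on the length used. In *Neuid* KD libraries the order by exon bases was the same, from Grin2b at 46.8 ± 9.55 to Grin2d at 0.849 ± 0.104 CPM per kb.

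**Figure D2:**
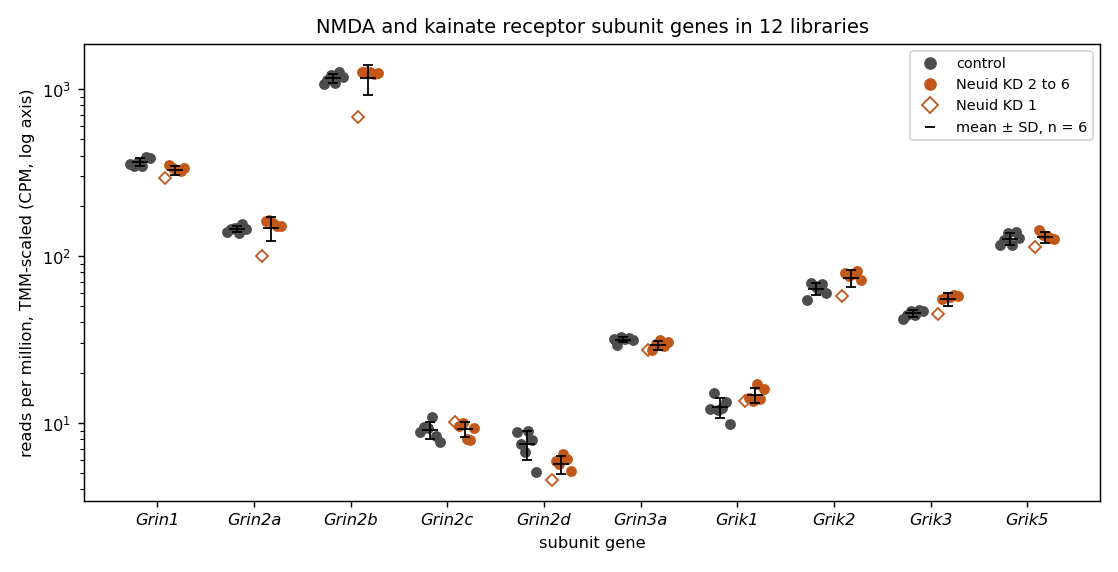
CPM of each subunit gene (y axis, log scale) in every library, with the genes on the x axis; gray points are control, orange points *Neuid* KD replicates 2 to 6, open diamonds *Neuid* KD replicate 1, and black bars the mean ± SD of 6 libraries. The open diamond of Grin2b, at 679 CPM, sits far under the other *Neuid* KD libraries at 1233 to 1275 CPM.

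Grin1 (ENSMUSG00000026959, chr2:25291181-25319187, minus strand of GRCm38) encodes GluN1, the subunit that every NMDA receptor needs. Control libraries lay between 347 and 394 CPM with a median of 361, and *Neuid* KD libraries between 291 and 351.5 CPM with a median of 332. All 6 *Neuid* KD libraries were under the control mean, and the groups overlapped in the range from 347 to 351.5 CPM. The log2 fold change was -0.16 (95% interval -0.27 to -0.051, standard error 0.0525, adjusted p = 0.0711). Left out singly, *Neuid* KD replicates 1, 5 and 6 each brought Grin1 under the threshold (adjusted p = 0.0108, 0.0474 and 0.0323), as did upper-quartile normalization (log2 fold change -0.22, adjusted p = 0.00019) and RLE normalization (-0.18, adjusted p = 0.0382). In 14 of the 24 alternative fits Grin1 was not called. The adjusted p was 0.805 with no filter on low counts, 0.706 with GC and length offsets and 0.641 within the libraries with at least 100 CPM of background. The antisense gene Grin1os covers 13.5% of its exon bases on the opposite strand, and whether the counting used the strand is not given in the sources used here.

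Among the GluN2 genes, Grin2b (ENSMUSG00000030209, chr6:135713233-136173511, minus strand) encodes GluN2B. Its control libraries lay between 1079.6 and 1263 CPM with a median of 1155, and its *Neuid* KD libraries between 679 and 1275 CPM with a median of 1257. Apart from replicate 1, the *Neuid* KD libraries were within 1233 to 1275 CPM, above 5 of the 6 control libraries. The means were 1159 ± 70.5 and 1163 ± 237 CPM, and the log2 fold change was 0.0050 (95% interval -0.24 to 0.25, adjusted p = 0.990). Without replicate 1, the coefficient of variation of the *Neuid* KD libraries went from 20.4% to 1.40%, against 6.08% in control, and the log2 fold change was 0.080 (adjusted p = 0.240).

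Grin2a (ENSMUSG00000059003, chr16:9567898-9995560, minus strand) encodes GluN2A. It was measured at 137 to 156 CPM in control (median 145.5) and at 99.4 to 164 CPM in *Neuid* KD (median 155). As for Grin2b, replicate 1 was far below the other *Neuid* KD libraries, which held 151 to 164 CPM. The log2 fold change was 0.032 (95% interval -0.16 to 0.23, adjusted p = 0.913), and 0.080 without replicate 1 (adjusted p = 0.301).

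Grin2c (ENSMUSG00000020734, chr11:115249169-115267243, minus strand) encodes GluN2C, a subunit best known from cerebellar granule cells, and was low. Control libraries held 7.69 to 10.8 CPM (median 9.09) and *Neuid* KD libraries 7.92 to 10.2 CPM (median 9.47), which is 121 to 279 reads per library. The ranges coincide almost fully, and the log2 fold change was 0.0075 (95% interval -0.19 to 0.20, adjusted p = 0.981). Grin2d (ENSMUSG00000002771, chr7:45831883-45878378, minus strand) encodes GluN2D, which is found in interneurons. It held 5.11 to 9.00 CPM in control (median 7.65) and 4.55 to 6.47 CPM in *Neuid* KD (median 5.80), on 54 to 200 reads per library. All *Neuid* KD libraries were under the control mean of 7.48 ± 1.44 CPM, and control replicate 6, at 5.11 CPM, lay among them. The log2 fold change was -0.39 (95% interval -0.66 to -0.11, standard error 0.129, adjusted p = 0.0795), and without control replicate 6 it was -0.49 (adjusted p = 0.00878). Gm45441 covers 9.66% of the exon bases of Grin2d on the opposite strand.

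As a share of the GluN2 reads per kb, Grin2b made up 80.9% ± 0.914 in control and 80.8% ± 1.99 in *Neuid* KD, and Grin2a 14.0% ± 0.263 and 14.4% ± 0.657. Grin2c held 3.14% ± 0.464 and 3.33% ± 1.18, and Grin2d 1.96% ± 0.434 and 1.50% ± 0.228. *Neuid* KD replicate 1 again stood apart, with a Grin2c share of 5.68% and a Grin2b share of 76.8%. Without it the *Neuid* KD shares were 81.6% ± 0.502 (Grin2b), 14.1% ± 0.335 (Grin2a), 2.87% ± 0.280 (Grin2c) and 1.42% ± 0.116 (Grin2d; SD, n = 5), so that the mean share of Grin2c was above that of control with this library and below it without. The balance of GluN2A to GluN2B, which does not depend on the scaling between libraries, was a log2 ratio of -2.53 ± 0.0365 in control and -2.49 ± 0.0999 in *Neuid* KD (two-sided exact permutation test over 924 arrangements, p = 0.548, adjusted p = 0.548 over 3 ratios). 3 of 6 *Neuid* KD libraries were above the control mean, and the highest ratio, -2.30, was that of replicate 1. The difference was 0.036, and -0.0015 without that library.

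Grin3a (ENSMUSG00000039579, chr4:49661611-49845744, minus strand) encodes GluN3A, a subunit of young neurons that lowers calcium entry. Its control libraries held 29.2 to 32.7 CPM (median 31.9) and its *Neuid* KD libraries 27.2 to 31.4 CPM (median 29.5). All 6 *Neuid* KD libraries were under the control mean of 31.5 CPM, and the groups overlapped. The log2 fold change was -0.11 (95% interval -0.21 to -0.0032, standard error 0.0499, adjusted p = 0.245). Relative to Grin1, the log2 ratio per kb was -3.88 ± 0.0758 in control and -3.83 ± 0.106 in *Neuid* KD (two-sided exact permutation test, p = 0.372, adjusted p = 0.548), with 5 of 6 *Neuid* KD libraries above the control mean. The difference was 0.051, and 0.091 without *Neuid* KD replicate 2 (exact permutation test, adjusted p = 0.0714).

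Among the kainate subunits that can form channels by themselves, Grik3 (ENSMUSG00000001985, chr4:125490700-125714173, plus strand, 1 annotated transcript of 16 exons) was the one whose GC box-rich promoter is printed above. Its control libraries lay between 42.1 and 47.6 CPM with a median of 45.7, and its *Neuid* KD libraries between 45.0 and 58.4 CPM with a median of 56.8. *Neuid* KD replicates 2 to 6 were all above every control library, from 55.2 CPM upward, and replicate 1, at 45.0 CPM, was among the controls. The groups therefore overlapped through 1 library, and without it the log2 fold change was 0.28 (adjusted p = 0.00016). It was called higher with each of the 12 libraries left out in turn, at an adjusted p of 0.00016 to 0.0418. Within the 7 libraries with at least 100 CPM of background its log2 fold change was 0.28 (adjusted p = 0.133) and within the 5 others 0.22 (adjusted p = 0.0118). The call was also lost with no filter on low counts (0.28, adjusted p = 0.113) and with GC and length offsets (0.26, adjusted p = 0.690).

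Grik2 (ENSMUSG00000056073, chr10:49094833-49788766, minus strand) encodes GluK2, the chief channel-forming kainate subunit of hippocampal principal cells. It was at 54.9 to 68.9 CPM in control (median 64.8) and at 57.4 to 80.8 CPM in *Neuid* KD (median 76.9). *Neuid* KD replicates 2 to 6, at 71.8 CPM or more, were above all control libraries, and replicate 1 was again among these. The log2 fold change was 0.22 (95% interval 0.060 to 0.39, standard error 0.0770, adjusted p = 0.0931), and without replicate 1 it was 0.24 (adjusted p = 0.0110). Without that library the groups of Grik2 and Grik3 did not overlap, and with all libraries they overlapped for each of the 10 members. Over all tested genes with all libraries, 4.13% did not overlap with *Neuid* KD higher, 1.57% with *Neuid* KD lower and 5.7% in either direction. Without *Neuid* KD replicate 1 these shares were 6.68%, 2.03% and 8.71%.

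Grik1 (ENSMUSG00000022935, chr16:87895900-88290265, minus strand) encodes GluK1, a subunit of interneurons. Control libraries held 9.86 to 15.0 CPM (median 12.2) and *Neuid* KD libraries 13.5 to 17.1 CPM (median 14.0). All 6 *Neuid* KD libraries were above the control mean of 12.4 ± 1.71 CPM, and control replicate 2, the highest control library, lay within their range. The log2 fold change was 0.25 (95% interval 0.053 to 0.44, standard error 0.0910, adjusted p = 0.122). Grik5 (ENSMUSG00000003378, chr7:25009849-25072346, minus strand) encodes GluK5, the high-affinity subunit that needs a partner, and was the most abundant of the 4 kainate members per kb. It held 116 to 140.0 CPM in control (median 126) and 113 to 143 CPM in *Neuid* KD (median 130.4). The ranges were nearly the same, and the log2 fold change was 0.029 (95% interval -0.11 to 0.16, adjusted p = 0.884).

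**Figure D3:**
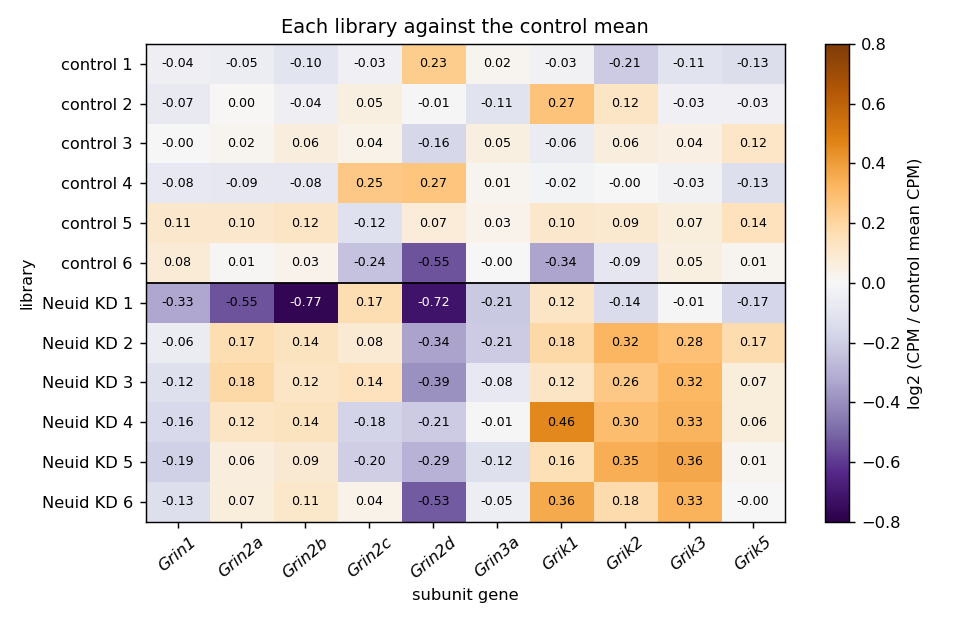
Each cell gives log2 of the CPM of a library (y axis) over the control mean of that gene (x axis), in purple below and orange above it. Grik2 and Grik3 are 0.18 to 0.36 above the control mean in *Neuid* KD replicates 2 to 6, and *Neuid* KD replicate 1 holds the lowest value of the map, -0.77 for Grin2b.

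The composition of the RNA of the 4 kainate members can be read from the same values. Grik4, which encodes GluK4 and was at 37.3 CPM in control libraries, is not a member and is left out of these shares. Grik5 held 67.7% ± 1.38 of the reads per kb in control and 64.4% ± 1.33 in *Neuid* KD. Grik3 held 14.0% ± 0.532 and 15.7% ± 0.723, Grik2 13.2% ± 0.770 and 14.3% ± 0.776, and Grik1 5.11% ± 0.725 and 5.64% ± 0.596. Without *Neuid* KD replicate 1 the *Neuid* KD shares were 64.1% (Grik5), 15.8% (Grik3), 14.5% (Grik2) and 5.55% (Grik1). The log2 ratio of Grik5 to Grik2 was 2.36 ± 0.110 in control and 2.17 ± 0.101 in *Neuid* KD, a difference of -0.19, and none of the 6 *Neuid* KD libraries was above the control mean. The two-sided exact permutation test gave p = 0.0173 and an adjusted p of 0.0519 over the 3 ratios, so that the difference did not pass 0.05; the smallest p this design can give is 0.00216. Without *Neuid* KD replicate 1, control replicate 2 or control replicate 4, left out singly, the adjusted p was 0.0260, 0.0260 and 0.0390. In 13 of the 16 alternatives for this ratio the difference did not pass 0.05, and the highest adjusted p was 0.343.

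**Figure D4:**
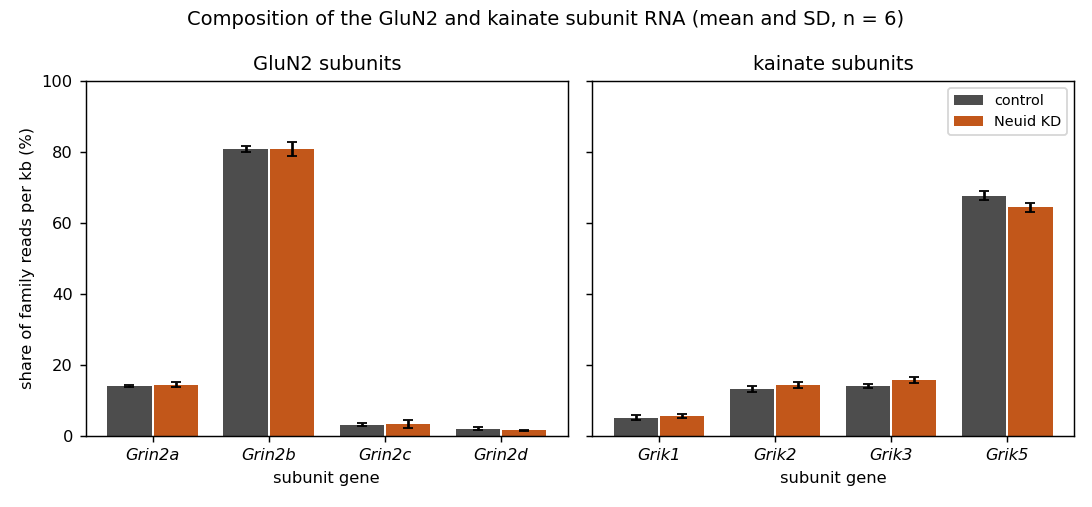
Share of the reads per kb (y axis, percent) that each gene holds among the GluN2 genes (left) and the kainate members, without Grik4 (right). Bars give the mean with SD of 6 control (gray) and 6 *Neuid* KD (orange) libraries. Grin2b holds 80.9% and 80.8% among the GluN2 genes, and Grik5 67.7% and 64.4% among the kainate members.

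Further genes of these receptors were read from lists. Of 9 related subunits and auxiliary proteins, 8 were tested, and 4 were called higher and none lower, with a median log2 fold change of 0.095. Grik4, which encodes GluK4, the other subunit that needs a partner, rose from 37.3 ± 3.46 to 44.0 ± 2.95 CPM (log2 fold change 0.24, adjusted p = 0.0247) with overlapping groups. That call was lost without control replicate 1, 4, 5 or 6 and without any one of *Neuid* KD replicates 2 to 6 (adjusted p from 0.0520 to 0.149). It was also lost with no filter on low counts (adjusted p = 0.282) and with GC and length offsets (0.969). Within the libraries with at least 100 CPM of background its adjusted p was 0.382, and within those under 100 CPM 0.0547. Grid1 and Grina were also called. Grin3b had too few reads to be tested, at 0.352 and 0.370 CPM, and overlaps Tmem259 on the opposite strand. Without *Neuid* KD replicate 1, 3 genes of this list were called higher and 1 lower, and with each library left out in turn 1 to 4 were called higher, the fewest without *Neuid* KD replicate 2 or 4. With no filter on low counts or with GC and length offsets, 1 was called higher and none lower. The same counts held within the libraries with at least 100 CPM of background.

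Of 20 scaffold and trafficking genes, 1 was called higher and 1 lower (median log2 fold change 0.013). Dlg2, which encodes the scaffold PSD-93, rose from 342 ± 30.2 to 435 ± 39.5 CPM (0.35, adjusted p = 0.00317), and Lin7a, a subunit of the complex that carries receptors with Kif17, fell from 52.7 ± 2.61 to 44.2 ± 3.35 CPM (-0.25, adjusted p = 0.00616). Of 23 genes of downstream signaling, 4 were called higher and 1 lower (median 0.027). Camk2a, the alpha subunit of the calcium/calmodulin-dependent kinase that binds GluN2B, rose from 699 ± 58.7 to 907 ± 44.1 CPM (0.38, adjusted p = 0.00022) with no overlap, and Rasgrf2, a calcium-regulated exchange factor for Ras, fell from 61.9 ± 3.87 to 49.4 ± 5.61 CPM (-0.32, adjusted p = 0.0058). Camk2a is also 1 of the markers of excitatory neurons above. Without *Neuid* KD replicate 1, 6 genes of downstream signaling were called higher and 2 lower, and 2 were called higher without control replicate 2, 4 or 6 or any one of *Neuid* KD replicates 2 to 6. Upper-quartile normalization gave 5 higher and 4 lower with a median of -0.031, and for the scaffold and trafficking genes 1 higher and 2 lower with a median of -0.047. With no filter on low counts or with GC and length offsets, no gene of either list was called. The adjusted p was then 0.174 and 0.458 for Dlg2 and 0.210 and 0.9998 for Lin7a. Within the libraries with at least 100 CPM of background, Camk2a was called higher (adjusted p = 0.0186). Dlg2 (0.0859), Lin7a (0.184) and Rasgrf2 (0.0987) were not called there.

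Of 12 genes that supply or clear the co-agonists glycine and D-serine, 11 were tested, and 3 were called higher and none lower (median 0.15). Slc7a10, the transporter Asc-1 for glycine and D-serine, rose from 1.67 ± 0.438 to 6.11 ± 1.14 CPM (1.87, adjusted p = 1.3e-06), with every *Neuid* KD library above every control library. Lrp3 covers 17.9% of its exon bases on the opposite strand. Psat1, an enzyme of serine synthesis, and Slc1a4, a serine transporter, were the others called. With GC and length offsets, 1 gene of this list was called higher and none lower. The astrocyte markers were higher in the same libraries, and their part in these values was not tested.

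The pattern of Grik3 over the 12 libraries was followed closely by that of Kcnma1, which encodes the BK potassium channel and was among the 2 closest of 15204 tested genes whose mean reached 1 CPM. Pearson's r of log2 CPM was 0.976. Its own log2 fold change was 0.36 (adjusted p = 0.00739, and 0.0581 without *Neuid* KD replicate 2). That call was also lost with no filter on low counts (adjusted p = 0.155) and with GC and length offsets (0.520). Within the libraries with at least 100 CPM of background the adjusted p was 0.0913. Kcnma1 was chosen for this correlation, which includes the difference between the groups. Its r and its higher level in *Neuid* KD therefore follow from the choice and are no separate evidence. The points share their libraries, and the lowest *Neuid* KD library of Kcnma1 held 267 CPM against a median of 370.2 CPM.

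The sign of the log2 fold change was the same in all 24 alternative fits for Grin1, Grin2d, Grin3a, Grik1, Grik2 and Grik3. It ran from -0.22 to -0.14 for Grin1, from -0.49 to -0.29 for Grin2d, from 0.16 to 0.24 for Grik2 and from 0.22 to 0.29 for Grik3. The fit with the background as a covariate and the fits with 1 or 2 factors of unwanted variation (RUVs) also called Grik2 higher and Grin1 and Grin2d lower. These fits called more of the 19578 genes in all. They called 1775 higher and 987 lower with the covariate, 1757 and 987 with 1 factor and 1706 and 930 with 2 factors. The reported fit called 1235 and 473. With the background as a covariate the adjusted p was 0.000116 for Grik3, 0.00628 for Grik2, 0.0031 for Grin1 and 0.0305 for Grin2d, and their log2 fold changes were 0.27, 0.21, -0.17 and -0.37. For Grin2a, Grin2b, Grin2c and Grik5 the sign changed in some of the alternatives.

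**Figure D5:**
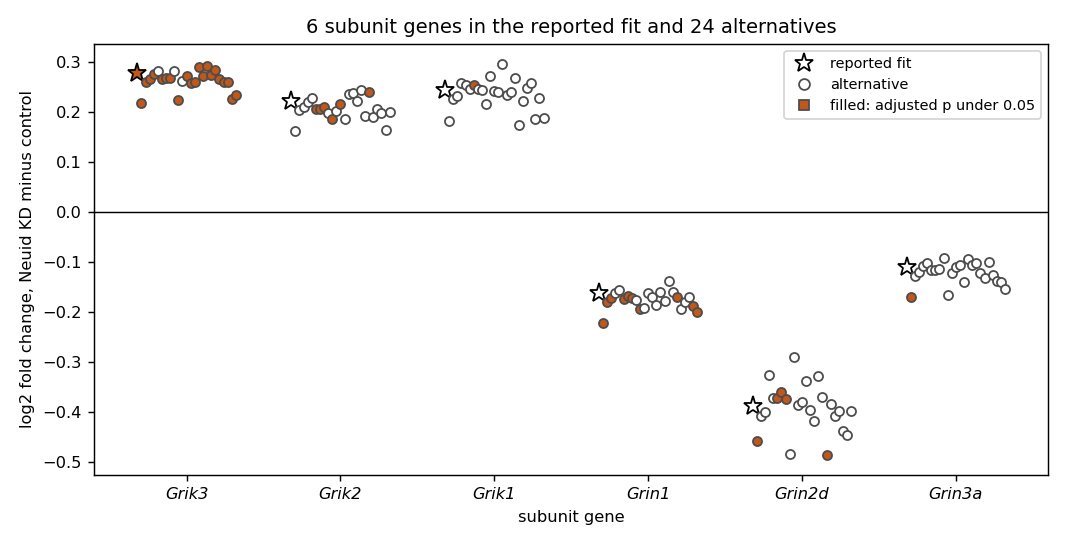
Log2 fold change (y axis, *Neuid* KD minus control) of the 6 subunit genes (x axis) whose sign was the same in every fit; the star is the reported fit, circles are the 24 alternatives, and a filled symbol has an adjusted p under 0.05. Grik3 is filled in 21 of its alternatives, Grin1 in 10, Grik2 in 6 and Grin2d in 5.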

How the data were processed

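RNA-seq was measured in 12 libraries, 6 per group, grouped by their labels. The authors sequenced stranded total RNA as single reads of 50 bases, aligned them with STAR to mm10 (GRCm38), counted them per gene with featureCounts and deposited the raw counts. The authors tested differential expression with DESeq2 and RUVseq, while the fit reported here had no such factors. The strand setting and annotation release of the counting are not given in the sources used here. Symbols and positions came from GENCODE M21 on GRCm38. No library was left out, and no pair was identical.

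Genes kept by filterByExpr (19578) were scaled by TMM, and edgeR 4.0.16 in R 4.3.3 tested them by quasi-likelihood, with the group as the only term and Benjamini-Hochberg adjustment over all of them. The 3 ratios were compared with exact permutation tests. Alternatives used limma 3.58.1, DESeq2 1.42.0, other normalizations, no filter, RUVs factors, a background covariate or split, GC and length offsets, a replicate block and each library left out. The scripts were tested on simulated data. Beyond the members, values are given for the called gene of each list with the smallest adjusted p in each direction, for Grik4 and Grin3b, and for the 2 genes closest in pattern to Grik3, of which some are not reported here; other called genes only complete a count and were named after their values were seen. The members, lists and background genes were chosen with earlier results of these data known.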

Additional observations from a re-analysis of the deposited data

Results flagged for a closer look

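In groups of 6 libraries, a value is given here when its gap to the nearest other library exceeds 0.625 of the whole range of its group (Dixon's criterion). Of 26 groups examined, 5 held such a value, and chance alone marks about 1 in 20. *Neuid* KD replicate 1 gave 3 of the 5. It was at 99.4 CPM for Grin2a, where the other *Neuid* KD libraries held 151 to 164 CPM, at 679 CPM for Grin2b, against 1233 to 1275 CPM, and at 45.0 CPM for Grik3, against 55.2 to 58.4 CPM. This library had the fewest reads (11152556), the second highest background of all libraries (604 CPM, after 653 CPM in control replicate 1), and a sum over the markers shared by neurons of 6398 CPM, the lowest of the 12. Their part in these values was not tested. Control replicate 2 was at 29.2 CPM for Grin3a, against 31.5 to 32.7 CPM in the other control libraries. *Neuid* KD replicate 2 had a log2 ratio of Grin3a to Grin1 of -4.03, against -3.83 to -3.73 in the other *Neuid* KD libraries.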

How the results depend on the processing

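The number of members called higher was 0 with no filter on low counts, within the libraries with at least 100 CPM of background and with GC and length offsets; it was 2 with 1 RUVs factor, the background covariate, the libraries under 100 CPM or the replicate block, and 3 with 2 RUVs factors. The number called lower was 3 with upper-quartile normalization, 2 with 1 or 2 RUVs factors or the background covariate, and 1 with RLE normalization, DESeq2 or the libraries under 100 CPM. With each library left out in turn, 1 to 2 were called higher and 0 to 1 lower. No alternative brought a member past an absolute log2 fold change of 0.5. Over all tested genes, 1235 were called higher and 473 lower, against 1049 and 1259 with upper-quartile normalization, 711 and 229 with no filter, 396 and 103 with GC and length offsets, and 1757 and 987 with 1 RUVs factor, so that the 2 settings without a call of Grik3 on all libraries called fewer genes in all. The background covariate called 1775 genes higher and 987 lower, 2 RUVs factors 1706 and 930, and the replicate block 1299 and 542. RLE normalization gave 1073 and 560, DESeq2 1203 and 588, and the libraries under 100 CPM 1110 and 799 of 17665 tested genes. Grik3 kept its sign, and its adjusted p ran from 0.000116 to 0.690 over the 24 alternatives.

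For 4 members near 0 the sign changed, at an adjusted p above 0.05 each time. Upper-quartile normalization gave -0.030 for Grin2a, -0.059 for Grin2b, -0.054 for Grin2c and -0.030 for Grik5. RLE normalization gave -0.014 for Grin2b and -0.011 for Grin2c, DESeq2 -0.0067 and -0.0024, and limma voom -0.028 and -0.011. The libraries with at least 100 CPM gave -0.065 for Grin2a, -0.076 for Grin2b and -0.010 for Grin2c, and the libraries under 100 CPM gave -0.056 for Grik5. Grin2b was at -0.034 and -0.031 with 1 and 2 RUVs factors, -0.026 with the background covariate, -0.0041 with GC and length offsets and -0.024 with the replicate block. With each library left out, values ran from -0.011 to 0.080 for Grin2a, -0.049 to 0.080 for Grin2b, -0.060 to 0.063 for Grin2c and -0.014 to 0.060 for Grik5. The log2 ratio of Grin2a to Grin2b then differed by -0.0015 to 0.053, that of Grin3a to Grin1 by 0.031 to 0.091 and that of Grik5 to Grik2 by -0.22 to -0.16. The cause was not tested.

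Replicate numbers are shared by the groups, but same-numbered libraries deviated together only in part. Their correlations ran from -0.62 to 0.80 and were highest for replicates 1 (0.80) and 3 (0.73). Of 6 pairs 3 were over 0.1, and 2 of 6 libraries correlated best with their own number. These values do not settle whether the libraries were paired. With the replicate block, 2 members were called higher (Grik2, adjusted p = 0.00845, and Grik3, adjusted p = 0.00199) and none lower. The 10 genes outside the members that the naming rule chose, read under the same fits after seeing the data, kept their sign in all 240 values and lost their call in 31. Depth limits Grin2c and Grin2d most, with 121 to 279 and 54 to 200 reads per library.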
